A study of Mus musculus with 30 samples.

Results

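A set of 10 genes of bone morphogenetic protein (BMP) signalling were followed through muscle injury in sorted mouse satellite cells, which repair skeletal muscle as its resident stem cells. The 10 members were taken by gene symbol, 1 probe set each, out of 19938 genes measured. They were the ligand genes Bmp2, Bmp4 and Bmp6, the antagonist genes Chrdl2 and Grem1, the type I receptor gene Bmpr1a, and the Id genes Id1, Id2, Id3 and Id4. Their probe sets and Entrez gene identifiers were 10476395 and 12156 for Bmp2, 10419261 and 12159 for Bmp4, 10404686 and 12161 for Bmp6, 10555280 and 69121 for Chrdl2, 10485948 and 23892 for Grem1, 10418927 and 12166 for Bmpr1a, 10477169 and 15901 for Id1, 10399691 and 15902 for Id2, 10509163 and 15903 for Id3, and 10404975 and 15904 for Id4. RNA was measured on Affymetrix Mouse Gene ST arrays, which carry short probes against each gene, in 10 groups of 3 arrays from mouse hindlimb muscle. Quiescent satellite cells (QSCs) came from uninjured muscle, and activated satellite cells (ASCs) from muscle damaged with BaCl2 and taken 36, 60 or 84 h later. Values are given on the log2 scale, so that a difference of 1 is a 2-fold change in signal, and each ± is an SD over n = 3 arrays.

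Cells were sorted in either of 2 ways. VCAM cells were VCAM positive and CD31, CD45 and Sca1 negative cells of C57BL6 wildtype mice. They came from old mice of 22 to 24 months as QSCs and at 60 h, and from young mice of 2 to 3 months as QSCs and at 36, 60 and 84 h. YFP cells were sorted by yellow fluorescent protein from Pax7CreER/+;ROSA26eYFP/+ mice of 2 to 3 months that had received tamoxifen, as QSCs and at the same 3 times. In these mice the label depends on a Cre enzyme expressed from the Pax7 gene and is inherited by the progeny of labelled cells. Sort, genotype and tamoxifen therefore cannot be told apart. The labels do not say that the 3 arrays of a group came from separate animals, so the p-values measure the spread between these arrays.

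BMPs are secreted ligands that bind type I and type II receptor kinases, which phosphorylate Smad1, Smad5 and Smad9. These join Smad4 in the nucleus, and Id genes are among the best known direct targets. Secreted antagonists such as chordin-like and gremlin proteins bind the ligands and keep them from their receptors. Id proteins lack a DNA-binding domain and hold E proteins, the partners of MyoD and its relatives, away from DNA, and BMP signalling is known to hold back muscle differentiation.

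RefSeq promoter sequences (GRCm38.p6, 250 bases before to 50 after the start) matched 7 of the 10 members. Those of Id2, which was not called at any time, and of Id3 and Id4, which fell at every time, are printed here 5′ to 3′ to set the Id genes side by side. Capitals mark matches, on either strand, to GGCGCC and CAGAC, letters that BMP Smads and Smad4 are known to bind, and to CANNTG, the E-box of E protein dimers. Id2 lies at chr12:25096043-25096342 on the minus strand, Id3 at chr4:136143572-136143871 on the plus strand and Id4 at chr13:48260866-48261165 on the plus strand.
Id2: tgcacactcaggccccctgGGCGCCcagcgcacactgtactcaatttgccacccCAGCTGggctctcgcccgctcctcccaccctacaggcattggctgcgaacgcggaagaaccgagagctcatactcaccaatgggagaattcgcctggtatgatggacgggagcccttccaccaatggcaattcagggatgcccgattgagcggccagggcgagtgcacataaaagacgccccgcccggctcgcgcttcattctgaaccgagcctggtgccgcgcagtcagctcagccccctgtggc
Id3: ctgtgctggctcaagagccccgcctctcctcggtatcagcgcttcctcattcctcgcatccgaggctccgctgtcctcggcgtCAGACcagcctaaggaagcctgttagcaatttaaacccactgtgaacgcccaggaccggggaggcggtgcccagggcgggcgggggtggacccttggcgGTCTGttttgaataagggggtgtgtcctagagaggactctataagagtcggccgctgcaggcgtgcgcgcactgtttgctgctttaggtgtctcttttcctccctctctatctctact
Id4: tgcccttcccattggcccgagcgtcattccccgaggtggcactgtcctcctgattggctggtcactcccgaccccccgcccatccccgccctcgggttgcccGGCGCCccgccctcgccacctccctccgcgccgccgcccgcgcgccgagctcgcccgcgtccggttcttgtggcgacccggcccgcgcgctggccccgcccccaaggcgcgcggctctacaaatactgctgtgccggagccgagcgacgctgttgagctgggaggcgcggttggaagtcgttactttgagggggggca
The Id2 window held 1 GGCGCC and 1 CANNTG, the Id3 window 2 CAGAC, and the Id4 window 1 GGCGCC. Among 32851 mouse promoter windows of the same length, 11.9% held GGCGCC, 49.6% held CAGAC and 72.3% held CANNTG. No matches overlapped in the printed windows, and the motifs were chosen with the results known. GGCGCC was thus found both in Id2 and in Id4, which differed in their course after injury. The Bmp4 window held 3 CANNTG, the Bmp6 window 2 CANNTG and 1 CAGAC, the Grem1 window 1 GGCGCC and 2 CAGAC, and the Bmpr1a window 1 GGCGCC. A match describes letters only, and binding was not measured here.

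Across the 30 arrays the medians lay between 7.03 and 7.16. A background level was read on each array from 1194 olfactory and vomeronasal receptor probe sets, genes of the nose, as their 95th percentile, and lay between 6.20 and 6.56. All 10 members but Grem1 were above it on all 30 arrays, and Grem1 on 26 of 30. All 12 satellite cell markers were above it in every group. So were all 12 endothelial markers on all arrays of 9 groups, and 10 of them in young VCAM cells at 60 h, although the VCAM sort excluded CD31. Among 12 macrophage markers, 5 were above it on all arrays of young VCAM QSCs, with Adgre1, Clec4e, Itgam, Ms4a7 and Mrc1 at or below it on all of them. In bulk RNA, fewer cells of one type and less RNA per cell cannot be told apart.

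After injury the transcripts of Bmp4, Bmp6 and Chrdl2 fell furthest, those of Id3 and Id4 fell at all times in both sorts, and those of Id2, Bmpr1a and Grem1 were called at none. A gene was called where its adjusted p was under 0.05 and its change at least 1.5-fold. In young VCAM cells 6 members were lower and 1 higher at 36 h than in QSCs, 7 lower and 0 higher at 60 h, and 7 lower and 0 higher at 84 h. Of all genes, 9.72% were lower and 13.2% higher at 36 h, 12.6% lower and 16.6% higher at 60 h, and 11.2% lower and 16.4% higher at 84 h. In young YFP cells 5 members were lower and 0 higher at 36 h, 7 lower and 0 higher at 60 h, and 7 lower and 0 higher at 84 h. Of all genes there, 6.14% were lower and 10.1% higher at 36 h, 12.8% lower and 17.2% higher at 60 h, and 11.2% lower and 17% higher at 84 h. The median change over the 10 members in VCAM cells was -0.92, -1.24 and -1.37 at 36, 60 and 84 h, against -0.01, -0.04 and -0.03 over all genes. In YFP cells it was -0.61, -1.38 and -1.45, against -0.06, -0.03 and -0.08.

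**Figure D1:**
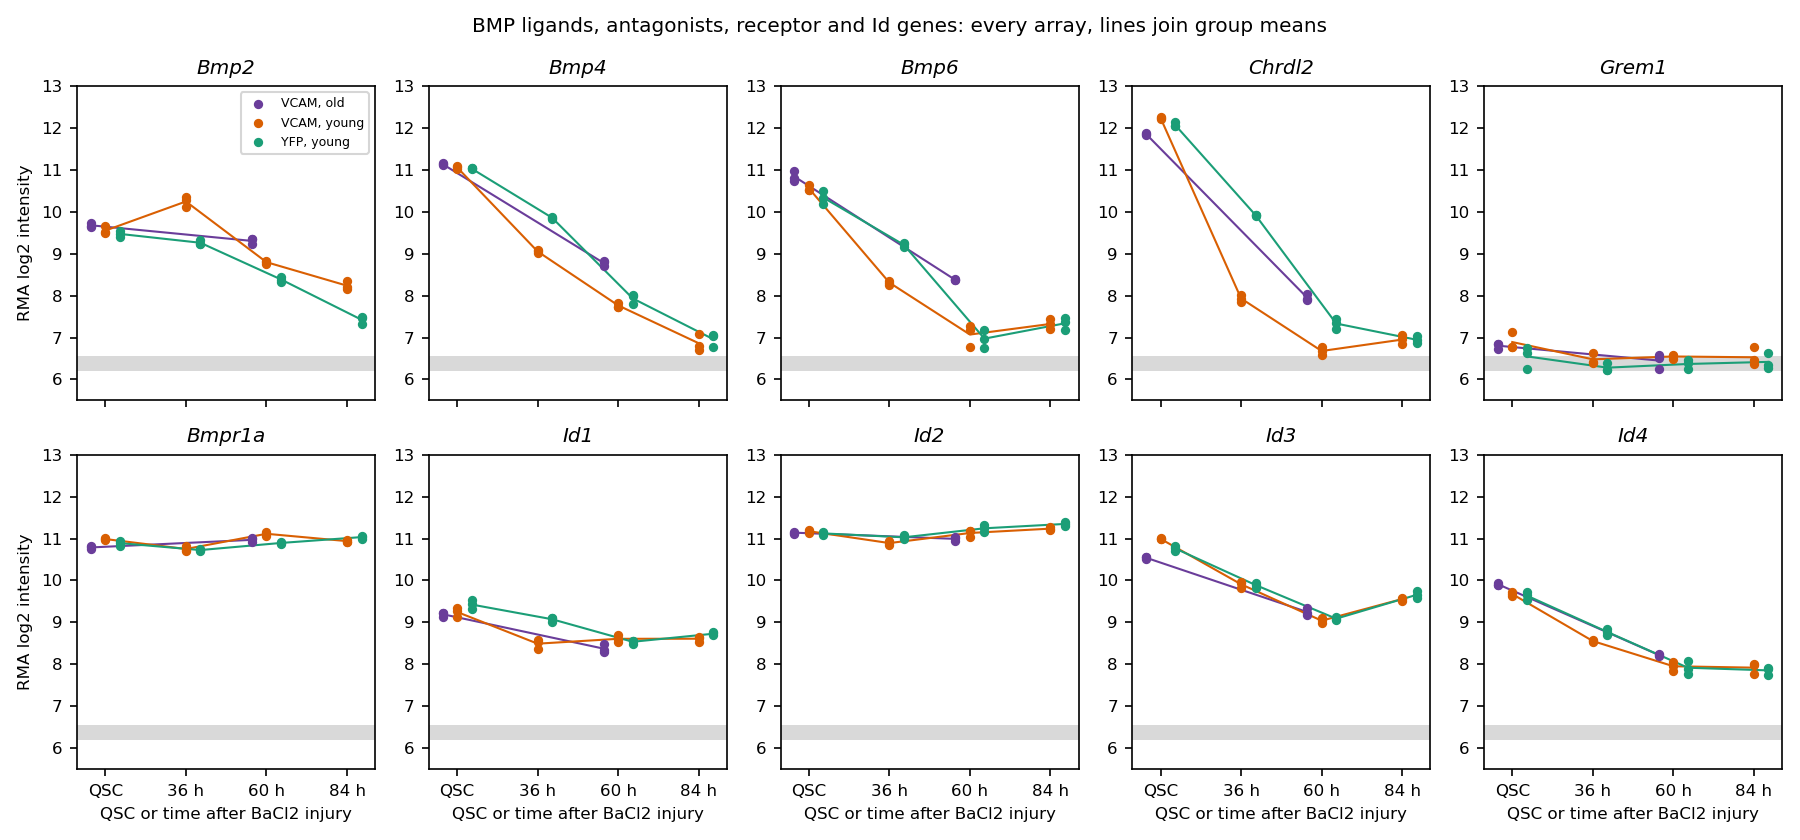
Log2 intensity (y axis) of the 10 members in QSCs and 36, 60 and 84 h after injury (x axis), 1 point per array, in old VCAM, young VCAM and young YFP cells, with lines joining group means and a grey band for the range of the background level (6.20 to 6.56). Bmp4, Bmp6 and Chrdl2 drop toward the band after injury, Grem1 lies in or just above it throughout, and Bmpr1a and Id2 stay above 10 on every array.

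Bmp4, a ligand with broad roles in development, fell step by step. In young VCAM cells its 3 arrays read 11.07, 11.10 and 11.01 in QSCs, 9.08, 9.07 and 9.01 at 36 h, 7.73, 7.74 and 7.83 at 60 h, and 6.80, 7.08 and 6.71 at 84 h. In YFP cells they read 11.01, 11.04 and 11.03 in QSCs, 9.88, 9.82 and 9.86 at 36 h, 7.80, 7.99 and 8.01 at 60 h, and 7.06, 7.03 and 6.78 at 84 h. No array of one time overlapped those of another within a sort. The change from QSCs in VCAM cells was -2.01, -3.30 and -4.20 at 36, 60 and 84 h (SE 0.08 each), the last of them 18.4-fold lower (adjusted p = 4.11e-25). In YFP cells it was -1.17, -3.10 and -4.07, 16.8-fold lower at 84 h (adjusted p = 6.47e-25). At 84 h the lowest arrays were close to the background level, so the size of the fall rests on values near the low end of the arrays.

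Bmp6, a ligand also known from iron control in the liver, reached its low level by 60 h. Its arrays in young VCAM cells read 10.53, 10.52 and 10.64 in QSCs, 8.26, 8.31 and 8.36 at 36 h, 7.26, 7.17 and 6.78 at 60 h, and 7.21, 7.44 and 7.33 at 84 h. The YFP arrays read 10.19, 10.33 and 10.49 in QSCs, 9.16, 9.23 and 9.24 at 36 h, 7.18, 6.76 and 6.97 at 60 h, and 7.18, 7.37 and 7.47 at 84 h. The arrays of 60 and 84 h overlapped in both sorts, and all other times stood apart. The VCAM changes from QSCs were -2.25, -3.49 and -3.24 (SE 0.11 each), and those of YFP cells -1.13, -3.36 and -3.00. The largest, at 60 h in VCAM cells, was an 11.2-fold fall (adjusted p = 1.66e-20). The lowest arrays at 60 h were close to the background level in both sorts, so its size rests on values near the low end of the arrays.

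Bmp2, a ligand close in sequence to Bmp4, took another course at 36 h. In young VCAM cells its arrays read 9.48, 9.66 and 9.51 in QSCs, 10.34, 10.28 and 10.11 at 36 h, 8.76, 8.80 and 8.84 at 60 h, and 8.20, 8.36 and 8.15 at 84 h. Those of YFP cells read 9.47, 9.40 and 9.54 in QSCs, 9.22, 9.24 and 9.32 at 36 h, 8.37, 8.34 and 8.45 at 60 h, and 7.33, 7.46 and 7.49 at 84 h. In VCAM cells it rose at 36 h by 0.69 ± 0.07 (SE), a 1.62-fold change (adjusted p = 6.55e-10), and under quantile normalization this change was 0.58 and fell short of 1.5-fold. It then fell by 0.75 at 60 h and by 1.31 at 84 h relative to QSCs. In YFP cells its change at 36 h was -0.21 and not called (adjusted p = 0.00914), and its called changes were -1.09 at 60 h and -2.05 at 84 h. All 3 VCAM arrays at 36 h were above every QSC array, and all 3 YFP arrays at 36 h were below theirs.

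Of the antagonists, Chrdl2, a chordin-like protein that binds BMPs, had the widest range of the members, with group means spanning 5.56. Its arrays in young VCAM cells read 12.22, 12.26 and 12.23 in QSCs, 7.93, 7.85 and 8.01 at 36 h, 6.78, 6.59 and 6.67 at 60 h, and 6.84, 6.96 and 7.05 at 84 h. In YFP cells they read 12.05, 12.13 and 12.04 in QSCs, 9.93, 9.93 and 9.90 at 36 h, 7.20, 7.36 and 7.45 at 60 h, and 7.03, 6.86 and 6.94 at 84 h. Within each sort no 2 times overlapped. In YFP cells it fell 4.46-fold at 36 h, 26.7-fold at 60 h and 35.0-fold at 84 h (adjusted p = 9.33e-28 at 84 h). The VCAM values at 60 h lay just above the background level, so the 47.2-fold change there rests on the low end of the arrays. The YFP values at 84 h were also near that level, which limits the 35.0-fold change in the same way. Grem1, gremlin 1, lay between 6.22 and 7.12 on all arrays and near background, and no neighbouring groups in its order stood apart. Its changes from QSCs lay between -0.41 and -0.13, and none was called, although in VCAM cells the arrays of each time lay below those of QSCs.

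Bmpr1a, a type I receptor for Bmp2 and Bmp4, lay between 10.69 and 11.15 on all 30 arrays. Its changes from QSCs in VCAM cells were -0.24 (95% interval -0.33 to -0.15), 0.13 (0.04 to 0.22) and -0.05 (-0.14 to 0.04) at 36, 60 and 84 h. In YFP cells they were -0.17 (-0.26 to -0.08), 0.00 (-0.09 to 0.09) and 0.14 (0.05 to 0.23). Each of these intervals ended short of a 1.5-fold change. The group means spanned 0.39, the narrowest range of the 10.

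Among the Id genes, Id3 was at its lowest at 60 h in both sorts and read higher at 84 h. Its arrays in young VCAM cells read 10.98, 10.99 and 11.01 in QSCs, 9.94, 9.83 and 9.96 at 36 h, 8.98, 9.05 and 9.10 at 60 h, and 9.57, 9.59 and 9.51 at 84 h. The YFP arrays read 10.70, 10.77 and 10.82 in QSCs, 9.94, 9.83 and 9.90 at 36 h, 9.09, 9.05 and 9.12 at 60 h, and 9.65, 9.59 and 9.74 at 84 h. No 2 times overlapped in either sort. Relative to QSCs it fell by 1.08, by 1.95 and by 1.44 in VCAM cells (SE 0.05 each) and by 0.87, by 1.68 and by 1.11 in YFP cells, 3.87-fold at most (adjusted p = 1.42e-21). From 60 to 84 h its change was 0.52 in VCAM cells and 0.57 in YFP cells, both with adjusted p under the threshold (1.86e-08 and 1.78e-09) and short of 1.5-fold. The YFP change passed 1.5-fold without replicate 3 at 60 h (0.59) and without replicate 2 at 84 h (0.60).

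Id4, an Id protein named for inhibition of DNA binding like the others, fell and stayed low. In young VCAM cells its arrays read 9.72, 9.67 and 9.63 in QSCs, 8.58, 8.53 and 8.55 at 36 h, 7.96, 8.06 and 7.84 at 60 h, and 7.996, 7.77 and 7.99 at 84 h. Those of YFP cells read 9.73, 9.66 and 9.53 in QSCs, 8.85, 8.77 and 8.69 at 36 h, 7.90, 7.77 and 8.09 at 60 h, and 7.75, 7.89 and 7.92 at 84 h. The arrays of 60 and 84 h overlapped in both sorts. The changes were -1.12, -1.72 and -1.76 in VCAM cells and -0.87, -1.72 and -1.79 in YFP cells (SE 0.07 each). The largest was a 3.45-fold fall in YFP cells at 84 h (adjusted p = 1.68e-17).

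Id1, the classic BMP reporter gene, moved less. Its arrays in young VCAM cells read 9.12, 9.35 and 9.28 in QSCs, 8.37, 8.52 and 8.58 at 36 h, 8.53, 8.70 and 8.59 at 60 h, and 8.54, 8.64 and 8.65 at 84 h. In YFP cells they read 9.32, 9.43 and 9.53 in QSCs, 9.01, 9.11 and 9.11 at 36 h, 8.49, 8.56 and 8.56 at 60 h, and 8.76, 8.73 and 8.69 at 84 h. All injured arrays lay below all QSC arrays of their sort. It fell by 0.76, by 0.64 and by 0.64 in VCAM cells (SE 0.07 each), and by 0.89 at 60 h and by 0.70 at 84 h in YFP cells, while its YFP change at 36 h was -0.35 and not called. With array medians made equal, the VCAM change at 60 h was -0.56 and was lost. Id2, which restrains E proteins in many tissues, lay between 10.84 and 11.40 on all arrays, and its 6 changes from QSCs lay between -0.28 and 0.23 with none called.

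**Figure D2:**
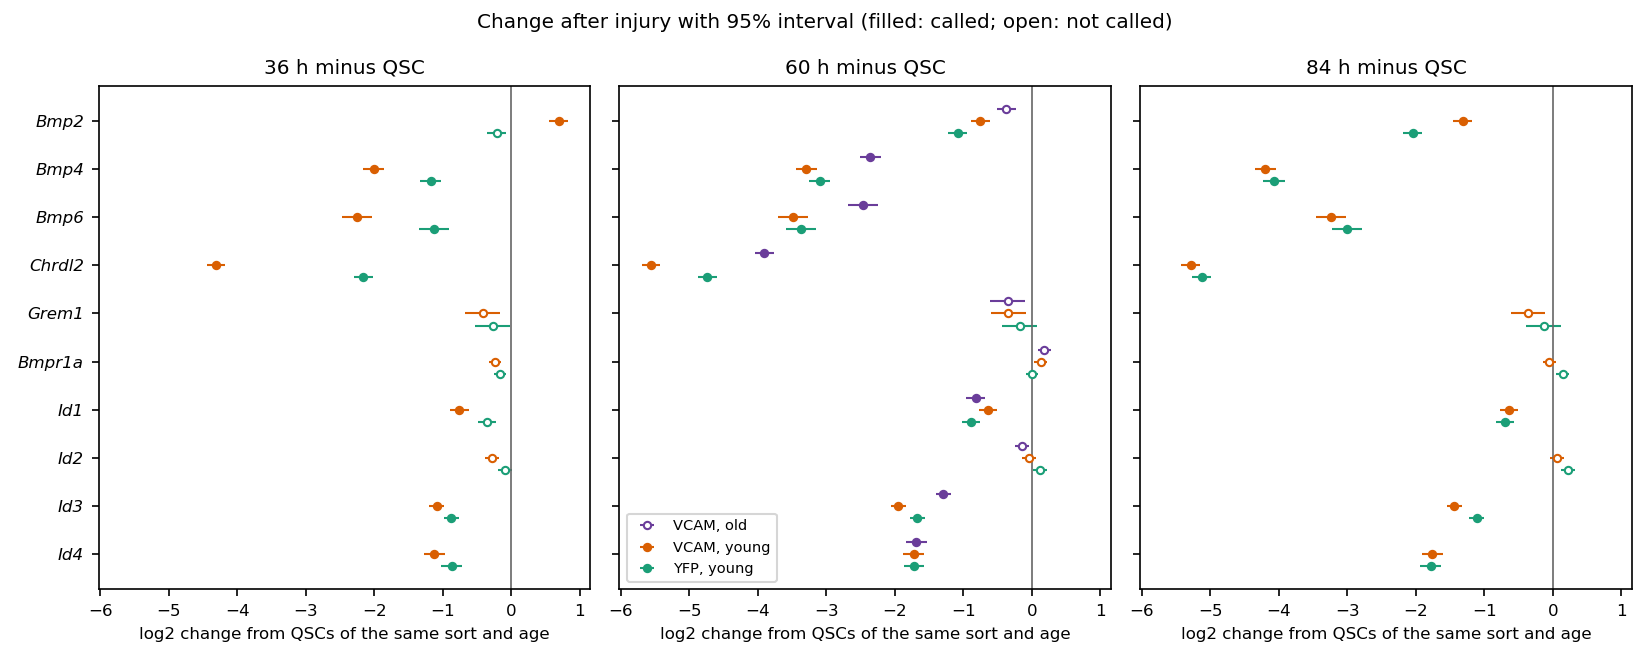
Log2 change (x axis) of each member (y axis) from QSCs of the same sort and age at 36, 60 and 84 h, with 95% intervals, for old VCAM (60 h only), young VCAM and young YFP cells. Filled points were called and open points were not. Chrdl2 has the largest falls, and Grem1, Bmpr1a and Id2 have open points at every time.

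Successive times were compared to follow the course after 36 h. From 36 to 60 h, 6 members fell and 0 rose in VCAM cells, against 8.49% of all genes lower and 6.26% higher, and 6 fell and 0 rose in YFP cells, against 8.58% lower and 8.73% higher. They were Bmp2, Bmp4, Bmp6, Chrdl2, Id3 and Id4 in both sorts. The Id4 change in VCAM cells was -0.60, just past the threshold, and was -0.54 without replicate 3 at 60 h. From 60 to 84 h, Bmp4 alone fell in VCAM cells, by 0.90, so that 1 member was lower and 0 higher against 0.732% of all genes lower and 3.22% higher. Without replicate 2 at 84 h, Bmp2 also passed there, with -0.62 against -0.56 on all arrays, and 2 members were called. In YFP cells 2 members were lower and 0 higher from 60 to 84 h, Bmp2 by 0.96 and Bmp4 by 0.97, against 2.19% lower and 4.66% higher.

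Markers of several cell types moved over the same times. In young VCAM cells at 36 h, where Bmp2 was higher, 12 of 12 macrophage markers, 6 of 7 tendon cell markers, 4 of 11 fibro-adipogenic and fibroblast markers and 1 of 12 endothelial markers were higher than in QSCs. At that time 8 of 12 satellite cell markers, 6 of 10 pericyte and smooth muscle markers, 3 of 12 endothelial markers and 2 of 11 fibro-adipogenic and fibroblast markers were lower. The summed level of the tendon cell markers was 14.82 to 14.85 at 36 h, against 12.36 to 12.42 in QSCs, and that of the macrophage markers 13.87 to 13.96 at 36 h, against 10.13 to 10.15 in QSCs. At 60 h in young VCAM cells, 8 of 12 satellite cell markers, 11 of 12 endothelial markers and 9 of 10 pericyte and smooth muscle markers were lower than in QSCs, and 12 of 12 macrophage markers were higher. At 84 h these counts were 9 of 12, 10 of 12 and 7 of 10 lower, and 12 of 12 higher. The summed level of the endothelial markers ranged from 12.63 to 12.70 in QSCs, 12.22 to 12.29 at 36 h, 10.65 to 10.66 at 60 h and 10.98 to 10.98 at 84 h. That of the pericyte and smooth muscle markers ranged from 14.14 to 14.21 in QSCs, 13.36 to 13.47 at 36 h, 12.08 to 12.15 at 60 h and 13.02 to 13.07 at 84 h. In YFP cells at 36 h, 11 of 12 endothelial markers were higher than in QSCs and 1 was lower, while Bmp4, Bmp6 and Chrdl2 were lower. Endothelial sums were 13.50 to 13.53 at 36 h, against 12.63 to 12.80 in QSCs. Also higher there were 12 of 12 macrophage markers, 5 of 7 tendon cell markers and 5 of 11 fibro-adipogenic and fibroblast markers. Of that last list 1 was lower, and of 12 satellite cell markers 7 were lower and 1 higher. Bmp2 was not called in YFP cells at 36 h. In YFP cells at 60 and 84 h, 11 and 10 of 12 endothelial markers were lower, and 12 of 12 macrophage markers were higher at both times. All 9 mitosis genes were higher than in QSCs at every time in both sorts. The part of these cells in the members' changes was not tested.

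The other genes of the pathway, 47 in 6 lists, were counted in the same way. In young VCAM cells 9 of 47 were lower and 5 higher at 36 h, 15 lower and 0 higher at 60 h, and 12 lower and 1 higher at 84 h, against 9.72%, 12.6% and 11.2% of all genes lower and 13.2%, 16.6% and 16.4% higher at these times. In YFP cells 6 were lower and 4 higher at 36 h, 15 lower and 0 higher at 60 h, and 13 lower and 1 higher at 84 h, against 6.14%, 12.8% and 11.2% of all genes lower and 10.1%, 17.2% and 17% higher. Their median change in VCAM cells was -0.10, -0.26 and -0.27 at the 3 times, against -0.01, -0.04 and -0.03 over all genes. No difference between these genes and the members was tested.

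Among 11 other ligands, Bmp5 stood out at 36 h. It rose by 2.14 in VCAM cells and by 1.06 in YFP cells relative to QSCs, and at 60 h it fell by 0.65 and by 0.79. Its VCAM arrays at 36 h read 11.14, 11.19 and 11.24, against 9.06, 9.03 and 9.05 in VCAM QSCs. The growth factor gene Gdf6 fell by 0.70 and by 0.62 in VCAM cells at 60 and 84 h, and by 0.91 and by 0.87 in YFP cells. Gdf6 was above background on all 3 young QSC arrays of each sort. In young VCAM cells it was above background on 0 of 3 arrays at 60 h and 1 of 3 at 84 h. In YFP cells it was above background on 1 of 3 arrays at each of these times. The size of its falls thus rests on the low end of the arrays. Bmp10, Bmp15 and Gdf5 were above background on no array.

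Among 11 other secreted antagonists, Chrdl1, a second chordin-like gene, and Fst, follistatin, were higher at 36 h while Chrdl2 was lower. Chrdl1 rose by 1.88 in VCAM cells and by 0.90 in YFP cells, and Fst by 1.51 and by 0.79. Twsg1, a BMP-binding protein that can act for or against the ligands, fell at every time in both sorts, by 1.23 in VCAM cells at 60 h. The noggin gene Nog changed by -0.35 to 0.02 over these comparisons and was never called.

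Among 11 other receptors and co-receptors, the co-receptors Rgma and Rgmb fell at all times in both sorts, and the type II receptor Bmpr2 fell at all times except 36 h in YFP cells, where its change was -0.44. Rgma fell by 2.00 in VCAM cells at 36 h and Rgmb by 1.66. Eng, endoglin, a co-receptor known from endothelium, fell by 1.92 in VCAM cells and by 1.52 in YFP cells at 60 h, and rose by 0.78 in YFP cells at 36 h. Hjv, a co-receptor known from muscle and liver, rose at 84 h in both sorts, by 1.18 in VCAM cells.

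Downstream of the receptors, none of the 4 Smad genes that carry the signal was called in VCAM cells, and Smad1 fell by 0.92 at 60 h and by 1.00 at 84 h in YFP cells. Of 5 inhibitors that act at the membrane or inside the cell, Bambi, a decoy receptor, fell at every time in both sorts. Its fall at 60 h was 1.23 in VCAM and 1.14 in YFP cells. Of 5 other known targets, Hey1, which Notch also controls, had called changes of -2.21, -2.55 and -1.75 in VCAM cells at 36, 60 and 84 h. Atoh8 fell by 0.75, by 0.71 and by 0.64 there. Of the 3 E protein genes, the partners that Id proteins hold, Tcf3 rose by 0.72 in VCAM and by 1.09 in YFP cells at 60 h, and Tcf4 fell by 0.89 and by 0.76. Of 4 myogenic factors, Myf5 fell by 2.01 and Myog, myogenin, rose by 1.36 in VCAM cells at 60 h, and Myog rose by 3.86 at 84 h.

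**Figure D3:**
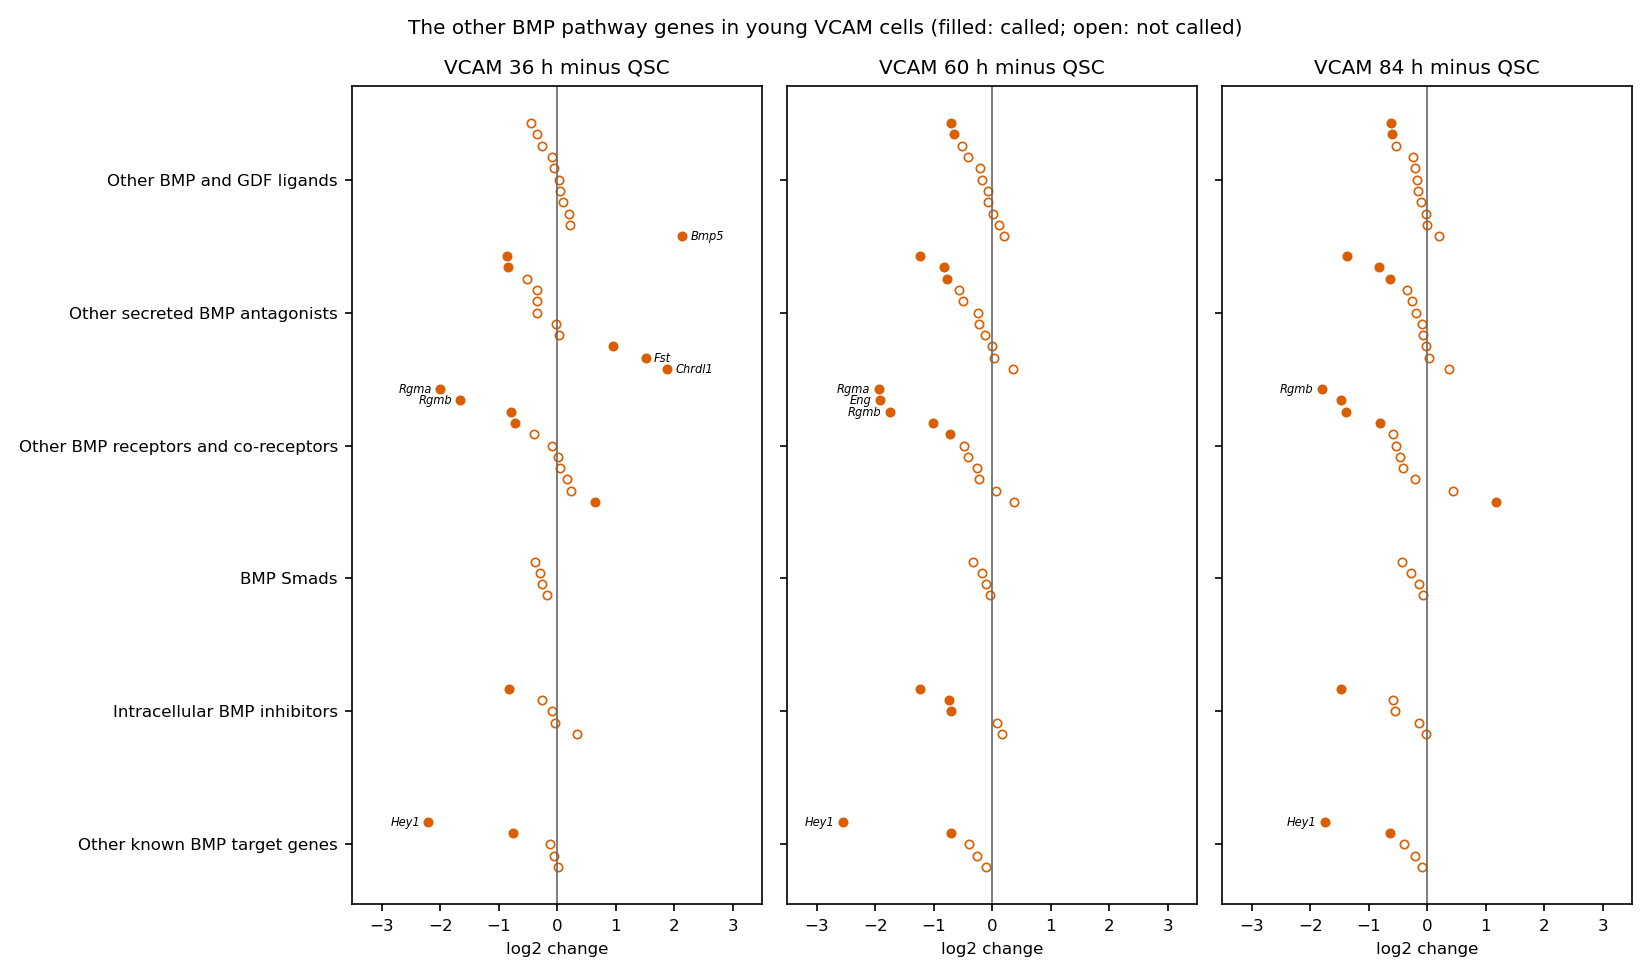
Log2 change from QSCs (x axis) of the 47 other BMP pathway genes by list (y axis) in young VCAM cells at 36, 60 and 84 h, 1 point per gene, filled where called, with names at changes of at least 1.5. Bmp5, Chrdl1 and Fst lie to the right at 36 h, and Hey1, Rgma and Rgmb lie to the left.

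Young VCAM and young YFP cells were compared to see whether the members depended on the sort. Among QSCs none was called, with 0 members higher and 0 lower in VCAM cells, against 1.74% of all genes higher and 1.82% lower. With no fold threshold 3 members passed, and the share of all genes passing in that way was not counted. At 36 h Bmp2 was higher in VCAM cells and Bmp4, Bmp6 and Chrdl2 were lower, 1 and 3 members against 2.78% of all genes higher and 2.49% lower. Chrdl2 averaged 7.93 ± 0.08 in VCAM cells and 9.92 ± 0.02 in YFP cells at 36 h, a difference of -1.99 ± 0.07 (SE, adjusted p = 4.3e-18). Bmp6 averaged 8.31 ± 0.05 in VCAM cells and 9.21 ± 0.05 in YFP cells, Bmp4 9.05 ± 0.03 in VCAM cells and 9.86 ± 0.03 in YFP cells, and Bmp2 10.25 ± 0.12 in VCAM cells and 9.26 ± 0.05 in YFP cells. None of these 4 genes overlapped between the sorts at 36 h. Id1 differed by -0.58 (adjusted p = 8.47e-08), a 1.498-fold difference just short of the threshold, which it passed without VCAM replicate 2 (-0.60), VCAM replicate 3 (-0.63) or YFP replicate 1 (-0.62). At 60 h only Chrdl2 was called among the members, lower by 0.66 in VCAM cells, so that 0 were higher and 1 lower against 0.557% and 0.757% of all genes. The VCAM arrays of Chrdl2 at 60 h lay just above the background level, so this difference rests on the low end of the arrays. At 84 h only Bmp2 was called, higher by 0.81 in VCAM cells, so that 1 was higher and 0 lower against 0.446% and 1.21%.

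The difference between the responses themselves was also tested, as the change from QSCs in VCAM cells minus that in YFP cells. At 36 h it was higher for 1 member and lower for 3, against 4.47% and 4.61% of all genes. Bmp2 had 0.91 ± 0.09 (SE, adjusted p = 1.94e-08), Bmp4 -0.83 ± 0.11 (6.31e-07), Bmp6 -1.12 ± 0.15 (1.32e-06) and Chrdl2 -2.15 ± 0.09 (2.25e-15). At 60 h it was higher for 0 members and lower for 1, against 2.21% and 2.78%, and at 84 h higher for 1 and lower for 0, against 2.71% and 3.84%. These were Chrdl2 with -0.82 at 60 h and Bmp2 with 0.73 at 84 h. The Chrdl2 value at 60 h likewise rests on VCAM arrays just above the background level. Id2, Id3 and Id4 were called in none of these comparisons.

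At 36 h the sorts also differed in markers. All 12 endothelial markers and 7 of 12 satellite cell markers were lower in VCAM than in YFP cells, and 6 of 7 tendon cell markers were higher. Summed levels were 12.22 to 12.29 in VCAM and 13.50 to 13.53 in YFP cells for endothelial markers, 14.74 to 14.79 in VCAM and 15.06 to 15.07 in YFP cells for satellite cell markers, and 14.82 to 14.85 in VCAM and 13.41 to 13.46 in YFP cells for tendon cell markers. At 60 h, where Chrdl2 was lower in VCAM cells, 10 of 12 macrophage markers and 4 of 12 endothelial markers were lower in VCAM than in YFP cells, and 5 of 7 tendon cell markers and 4 of 11 fibro-adipogenic and fibroblast markers were higher. At 84 h, where Bmp2 was higher in VCAM cells, 8 of 12 macrophage markers were lower, and 5 of 7 tendon cell markers and 4 of 11 fibro-adipogenic and fibroblast markers were higher. Among QSCs 6 of 10 pericyte and smooth muscle markers and 4 of 7 tendon cell markers were higher in VCAM cells. Among the other pathway genes 4 of 47 were higher and 3 lower in VCAM cells at 36 h, against 2.78% and 2.49% of all genes, with Bmp5 higher by 2.65, Chrdl1 by 1.31, Bmper, a secreted BMP-binding protein, by 0.88, and the type I receptor gene Bmpr1b by 0.79. Of the 3 lower genes, 2 were other receptors or co-receptors, a list whose lowest difference was -0.69. The remaining lower gene was among the other known targets, a list whose lowest difference was -0.62. Bmp5 was already higher in VCAM than in YFP QSCs, by 1.56. The part of other cells in these differences was not tested.

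**Figure D4:**
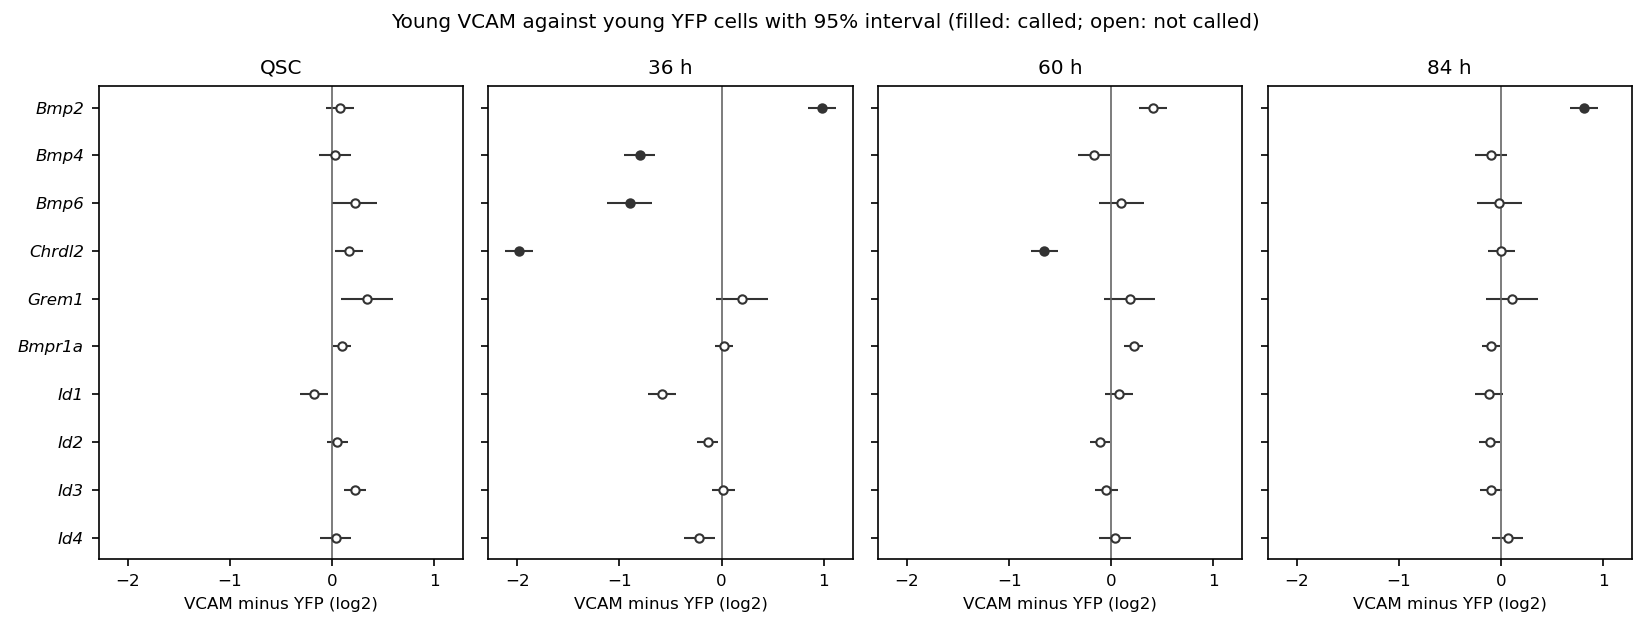
Difference between young VCAM and young YFP cells (x axis, log2, VCAM minus YFP) for each member (y axis) in QSCs and at 36, 60 and 84 h, with 95% intervals and filled points where called. The called differences are 4 at 36 h, 1 at 60 h and 1 at 84 h, and none in QSCs.

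Old and young VCAM cells were compared to see how age bears on the members. Among QSCs 0 members were higher and 0 lower in old cells, against 3.04% of all genes higher and 4.7% lower. With no fold threshold 5 members passed, and the share of all genes passing on adjusted p alone was not counted. The nearest to the threshold were Id3, with arrays of 10.51, 10.56 and 10.55 in old QSCs and 10.98, 10.99 and 11.01 in young QSCs, and Chrdl2, with 11.85, 11.83 and 11.89 in old QSCs and 12.22, 12.26 and 12.23 in young QSCs. Their differences were -0.45 (95% interval -0.56 to -0.34, adjusted p = 9.18e-08) and -0.38 (-0.52 to -0.25, adjusted p = 2.67e-05), both without overlap and short of 1.5-fold. Id4 had 9.91 ± 0.03 in old and 9.68 ± 0.05 in young QSCs, and Bmp4 11.14 ± 0.02 in old and 11.06 ± 0.04 in young QSCs, differences of 0.24 and 0.08. Of these, Id4 passed on adjusted p alone and Bmp4 did not (0.0124 and 0.484 by limma). Bmp6, with a difference of 0.28, and Bmpr1a, with -0.20, also passed on adjusted p alone (0.039 and 0.000496 by limma). In the same comparison of QSCs, 6 of 7 tendon cell markers were higher in old cells, and 6 of 10 pericyte and smooth muscle markers, 3 of 12 satellite cell markers and 5 of 9 mitosis genes were lower. Of the 11 fibro-adipogenic and fibroblast markers 3 were higher and 4 lower. The summed level of the tendon cell markers was 13.73 to 13.75 in old and 12.36 to 12.42 in young QSCs, and that of the satellite cell markers 15.50 to 15.53 in old and 15.77 to 15.79 in young QSCs. Their part in the members' differences was not tested.

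At 60 h Bmp4, Bmp6 and Chrdl2 were higher in old cells. That made 3 members higher and 0 lower, against 4.75% of all genes higher and 0.657% lower. Bmp4 read 8.80, 8.71 and 8.83 in old cells, against 7.73, 7.74 and 7.83 in young cells, a difference of 1.01 ± 0.08 (SE, 2.02-fold, adjusted p = 2.83e-11). Bmp6 read 8.39, 8.36 and 8.37 in old cells, against 7.26, 7.17 and 6.78 in young cells, 2.47-fold higher (adjusted p = 1.8e-10). Chrdl2 read 7.91, 8.05 and 7.90 in old cells, against 6.78, 6.59 and 6.67 in young cells, 2.41-fold higher (adjusted p = 1.8e-14). The old and young arrays did not overlap for any of the 3 genes. The young Chrdl2 arrays and the lowest young Bmp6 array lay near the background level, so these folds rest on the low end of the arrays. Bmp2 read 9.35, 9.22 and 9.34 in old cells, against 8.76, 8.80 and 8.84 in young cells, a difference of 0.51 that was short of 1.5-fold. The Id genes differed by -0.23 for Id1, -0.14 for Id2, 0.21 for Id3 and 0.27 for Id4.

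Old cells at 60 h were compared with old QSCs as well. There 6 members were lower and 0 higher, against 11.7% of all genes lower and 17.8% higher. Chrdl2 fell by 3.91, Bmp6 by 2.47, Bmp4 by 2.36, Id4 by 1.69, Id3 by 1.29 and Id1 by 0.82. The Bmp2 change was -0.37 and not called, and it was -0.60 and called under quantile normalization. The response of old cells minus that of young cells was higher for 4 members and lower for 0, against 6.81% and 2.16% of all genes. It was 1.66 ± 0.09 for Chrdl2 (SE, adjusted p = 2.56e-13), 1.02 ± 0.15 for Bmp6 (5.37e-06), 0.94 ± 0.11 for Bmp4 (1.01e-07) and 0.66 ± 0.07 for Id3 (1.04e-07). For Id3 the response difference was 0.56 and short of the threshold with array medians made equal. Old minus young Id3 was -0.45 in QSCs and 0.21 at 60 h, and neither was called. For Id4 the response difference was 0.03 (95% interval -0.18 to 0.25).

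Other cells' markers moved with age at 60 h. In old cells 12 of 12 macrophage markers, 7 of 12 endothelial markers, 5 of 7 tendon cell markers, 5 of 11 fibro-adipogenic and fibroblast markers, 4 of 10 pericyte and smooth muscle markers and 3 of 12 satellite cell markers were higher than in young cells. Summed levels were 13.71 to 13.80 in old and 11.80 to 11.91 in young cells for macrophage markers, 11.49 to 11.52 in old and 10.65 to 10.66 in young cells for endothelial markers, and 14.61 to 14.63 in old and 14.40 to 14.47 in young cells for satellite cell markers. The part of these cells in the higher Bmp4, Bmp6 and Chrdl2 was not tested. The summed level of the 9 mitosis genes was 13.94 to 14.00 in old and 14.31 to 14.37 in young cells. Its link to the members was not tested either. Of the other pathway genes, 5 of 47 were higher and 0 lower in old cells at 60 h, against 4.75% and 0.657% of all genes, Bmp5 by 1.08, Eng by 1.05, Chrdl1 by 1.01, Bmper by 0.74 and Fst by 0.64. Among QSCs 3 of 47 were higher in old cells and 1 lower, against 3.04% and 4.7% of all genes. The higher genes were Bmpr1b by 1.12, Chrdl1 by 0.63 and Fst by 0.61, and the lower was Hey1 by 0.88. In old cells at 60 h, 15 of 47 were lower than in old QSCs and 0 higher, against 11.7% and 17.8% of all genes.

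**Figure D5:**
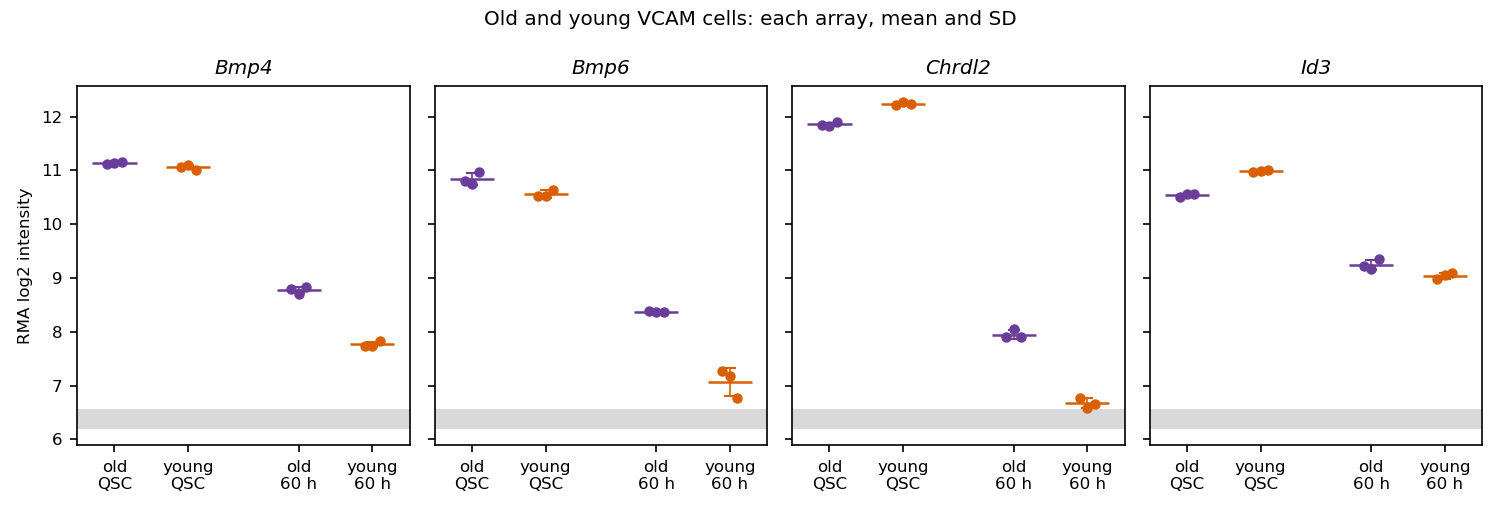
Log2 intensity (y axis) of Bmp4, Bmp6, Chrdl2 and Id3 in old and young VCAM cells as QSCs and at 60 h (x axis), 1 point per array with the group mean and SD and a grey band for the background level. At 60 h the old arrays of each gene lie above all its young arrays. Among QSCs the old arrays of Bmp4 and Bmp6 lie above the young ones, and those of Chrdl2 and Id3 lie below. Only the 60 h differences of Bmp4, Bmp6 and Chrdl2 were called.

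The 10 groups were also put in order by mean level for each member. For Bmp4, Bmp6, Chrdl2, Grem1, Id1, Id3 and Id4 the 3 QSC groups were the highest, although for Grem1 no neighbouring groups stood apart. The highest group was YFP 84 h for Id2 and young VCAM 60 h for Bmpr1a. For Bmp2 the highest was young VCAM cells at 36 h (10.25), followed by the 3 QSC groups, of which old and young VCAM QSCs, and young VCAM and young YFP QSCs, overlapped. Of the 9 steps between neighbouring groups, arrays stood apart in 7 for Chrdl2, 6 each for Bmp4, Bmp6 and Id3, 5 each for Bmp2 and Id4, 3 each for Id1 and Bmpr1a, 1 for Id2 and 0 for Grem1. The lowest group was VCAM 84 h for Bmp4, YFP 60 h for Bmp6, VCAM 60 h for Chrdl2 and Id3, old VCAM 60 h for Id1, and YFP 84 h for Bmp2 and Id4. Bmp6 at 60 and 84 h overlapped between all 4 neighbouring young groups.

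Genes whose group means followed a member most closely were sought over the 10 groups, among 6061 or 6062 genes with means spanning at least 1. As a description, with Pearson's r over n = 10 group means, Bmp2 was followed by P3h2 (0.976), Lrig3 (0.963) and Pdpn (0.945), and Bmp4 by Ptger4 (0.987), Mcc (0.987) and Slc38a2 (0.986). Bmp6 was followed by Pxdc1 (0.995), Dmd (0.994) and Cebpd (0.994), and Chrdl2 by Ptprz1 (0.998), Zbtb44 (0.994) and Blnk (0.994). Id1 was followed by Drp2 (0.974), Syt11 (0.963) and Msc (0.963), Id3 by Mir568 (0.994), Galnt11 (0.991) and Zbtb20 (0.99), and Id4 by Camk2n1 (0.998), Hivep1 (0.994) and Cadm4 (0.994). For Grem1, Bmpr1a and Id2, whose own means spanned less than 1, the closest were Metap1d (0.926), Tom1l1 (0.876) and Ccdc66 (0.925). All points share the same arrays, and many genes differ between QSCs and injured cells in these data.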

How the data were processed

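The deposited table holds log2 values per probe set that the authors made with Affymetrix Expression Console and RMA (background correction, quantile normalization and summary), per the submitters' processing notes; the sources used here do not give their versions. It has 35556 probe sets on 30 arrays in 10 groups of 3. Platform annotation gave 1 symbol to 21789 probe sets, several to 1621 and none to 12146. Of the first, 21698 matched RefSeq (GRCm38.p6), and the probe set with the highest mean was kept, leaving 19938 genes. Each member had 1 probe set.

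Group means were fitted with limma 3.58.1 (lmFit and eBayes, R 4.3.3) over all arrays, with 20 residual degrees of freedom, two-sided tests and Benjamini-Hochberg adjustment over all genes of each of 21 comparisons. Fold changes are of group means. The number of arrays limits the precision. Data with independent normal noise were simulated for young VCAM cells at 36 h against QSCs over 19938 genes, and 0 of 19738 unchanged genes were called. Of 50 genes changed at each of 1.2-, 1.5-, 2- and 4-fold, 0, 30, 50 and 50 were called. The adjusted p alone was passed by 4 unchanged genes and by 26, 47, 50 and 50 of the changed genes. Most of the misses were thus set by the fold threshold. Arrays of a group correlated at 0.996 to 0.998, and no 2 were identical. With group means removed, 27 of 135 same-number pairs correlated above 0.1, and 18 of 30 arrays correlated best with their own number. A pairing by replicate number was therefore not excluded, and a fit with a replicate block is given below.

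Named genes were all 10 members, up to 4 called genes with the largest changes per other list and comparison, and the 3 genes most like each member. Nog, Bmp10, Bmp15 and Gdf5 were named after their values were seen. Members and lists were chosen with earlier results of these data known. Alternatives were scaling, quantile normalization, a filter on dim genes, the mean of probe sets, the fold threshold, the variance model, fitting only the groups compared, a replicate block and leaving out each array.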

Additional observations from a re-analysis of the deposited data

Results flagged for a closer look

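The change after injury differed between groups for 10 member results, each by a test of the difference itself (limma, adjusted over all genes). Between the sorts, the change of young VCAM cells minus that of young YFP cells was 0.91 for Bmp2, -0.83 for Bmp4, -1.12 for Bmp6 and -2.15 for Chrdl2 at 36 h, -0.82 for Chrdl2 at 60 h, and 0.73 for Bmp2 at 84 h. Between the ages, the change of old cells minus that of young cells at 60 h was 0.94 for Bmp4, 1.02 for Bmp6, 1.66 for Chrdl2 and 0.66 for Id3. The level of Id3 in old minus young cells was -0.45 in QSCs and 0.21 at 60 h, and neither was called. The comparisons within a sort or age share their QSC arrays, so these values are not independent of one another. With 3 arrays a group, single arrays were not screened as outliers.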

How the results depend on the processing

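The array number and signal over background limit these results. Each group had 3 arrays, and Grem1 was above background on 26 of 30 arrays. The late levels of Bmp4, Bmp6 and Chrdl2 lay near background. Whether replicate numbers pair the arrays was not settled. With group means removed, 27 of 135 same-number pairs correlated above 0.1, and 18 of 30 arrays correlated best with their own number. The mean correlation was 0.035 for same-number pairs and -0.0175 for other pairs. With the replicate block 80 member calls were made, against 80 without it, and 0 of 210 changed. Apart from the fold threshold and leaving out arrays, 1446 of 1470 member results kept their direction and side of the threshold. The sign turned only for changes of at most 0.143 that were not called (66 values in 28 results, smallest adjusted p = 0.249 by limma), and the cause was not tested. With array medians made equal, the turned values were 0.0425 for Id2 in VCAM 60 h against QSCs, -0.0811 for Id1 in VCAM 84 h against 60 h, -0.0092 for Grem1 in YFP 84 h against 60 h, -0.0309 for Bmp4 in VCAM against YFP QSCs, -0.0085 for Id2 in VCAM against YFP QSCs, -0.025 for Id4 in VCAM against YFP QSCs, 0.087 for Id4 in VCAM minus YFP responses at 60 h, -0.0408 for Bmpr1a in old minus young responses at 60 h and -0.0638 for Id4 in old minus young responses at 60 h. With quantile normalization they were -0.0389 for Id2 in VCAM 84 h against QSCs, -0.0549 for Bmpr1a in YFP 60 h against QSCs, -0.0383 for Id1 in VCAM 84 h against 60 h, -0.0008 for Bmpr1a in VCAM against YFP cells at 36 h, -0.0109 for Chrdl2 in VCAM against YFP cells at 84 h, -0.0067 for Id4 in VCAM minus YFP responses at 84 h, 0.0162 for Grem1 in old minus young responses at 60 h and -0.0671 for Id4 in old minus young responses at 60 h. With array medians made equal, calls were lost for Id1 in VCAM cells at 60 h (-0.56), Id4 in VCAM cells from 36 to 60 h (-0.49) and the Id3 age response (0.56), and Bmp2 was gained in VCAM cells from 60 to 84 h (-0.64), so that 2 members were called there against 1. With quantile normalization, calls were lost for Bmp2 in VCAM cells at 36 h (0.58) and Id4 in VCAM cells from 36 to 60 h (-0.57), and Bmp2 was gained in old cells at 60 h against QSCs (-0.60). With no fold threshold, the called members were 8 against 5 for YFP 36 h against QSCs, 5 against 1 for VCAM 84 h against 60 h, 7 against 2 for YFP 84 h against 60 h, 3 against 0 for VCAM against YFP QSCs, 7 against 4 for VCAM against YFP cells at 36 h, 3 against 1 for VCAM against YFP cells at 60 h, 5 against 0 for old against young QSCs, 9 against 3 for old against young 60 h, 10 against 6 for old 60 h against QSCs, 7 against 4 for VCAM minus YFP responses at 36 h, 3 against 1 for VCAM minus YFP responses at 60 h and 3 against 1 for VCAM minus YFP responses at 84 h. With no fold threshold, the called other pathway genes were 30 against 14 for VCAM 36 h against QSCs, 35 against 15 for VCAM 60 h against QSCs, 31 against 13 for VCAM 84 h against QSCs, 22 against 10 for YFP 36 h against QSCs, 30 against 15 for YFP 60 h against QSCs, 34 against 14 for YFP 84 h against QSCs, 23 against 7 for VCAM against YFP cells at 36 h, 19 against 4 for old against young QSCs, 14 against 5 for old against young 60 h and 37 against 15 for old 60 h against QSCs. With a fold of at least 2, the called members were 3 against 5 for YFP 36 h against QSCs, 0 against 1 for VCAM 84 h against 60 h, 3 against 6 for YFP 60 h against 36 h, 0 against 2 for YFP 84 h against 60 h, 1 against 4 for VCAM against YFP cells at 36 h, 0 against 1 for VCAM against YFP cells at 60 h, 0 against 1 for VCAM against YFP cells at 84 h, 2 against 4 for VCAM minus YFP responses at 36 h, 0 against 1 for VCAM minus YFP responses at 60 h, 0 against 1 for VCAM minus YFP responses at 84 h and 2 against 4 for old minus young responses at 60 h. With a fold of at least 2, the called other pathway genes were 6 against 14 for VCAM 36 h against QSCs, 7 against 15 for VCAM 60 h against QSCs, 7 against 13 for VCAM 84 h against QSCs, 3 against 10 for YFP 36 h against QSCs, 8 against 15 for YFP 60 h against QSCs, 7 against 14 for YFP 84 h against QSCs, 2 against 7 for VCAM against YFP cells at 36 h, 1 against 4 for old against young QSCs, 3 against 5 for old against young 60 h and 6 against 15 for old 60 h against QSCs. Shares of all genes were not counted with no fold threshold or with a fold of at least 2. Leaving out each array in turn, 1444 of 1500 member results held, and the called members in VCAM cells from 60 to 84 h ranged from 1 to 2. The ranges that follow are over these fits, for every change whose sign turned in any setting. Changes whose range keeps the same sign turned only with array medians made equal or with quantile normalization. Ranges of the changes whose sign could turn were 0.0113 to 0.054 for Bmp4 in VCAM against YFP QSCs, -0.2315 to 0.0223 for Bmp6 in VCAM minus YFP responses at 60 h, -0.0085 to 0.2453 for Bmp6 in VCAM against YFP cells at 60 h, -0.0961 to 0.0487 for Bmp6 in VCAM against YFP cells at 84 h, -0.0074 to 0.0485 for Bmpr1a in VCAM against YFP cells at 36 h, -0.0286 to 0.0353 for Bmpr1a in YFP 60 h against QSCs, 0.0333 to 0.0862 for Bmpr1a in old minus young responses at 60 h, -0.0469 to 0.0618 for Chrdl2 in VCAM against YFP cells at 84 h, -0.1365 to 0.0651 for Grem1 in VCAM 84 h against 60 h, -0.2423 to 0.0026 for Grem1 in VCAM minus YFP responses at 36 h, -0.0081 to 0.2162 for Grem1 in VCAM against YFP cells at 84 h, -0.0568 to 0.1201 for Grem1 in YFP 84 h against 60 h, -0.1259 to 0.0931 for Grem1 in old minus young responses at 60 h, -0.1655 to 0.0069 for Grem1 in old against young 60 h, -0.1453 to 0.0287 for Grem1 in old against young QSCs, -0.0362 to 0.0485 for Id1 in VCAM 84 h against 60 h, -0.0049 to 0.111 for Id1 in VCAM minus YFP responses at 84 h, -0.0651 to -0.0005 for Id2 in VCAM 60 h against QSCs, 0.0396 to 0.0806 for Id2 in VCAM 84 h against QSCs, 0.0304 to 0.0743 for Id2 in VCAM against YFP QSCs, -0.0121 to 0.0594 for Id3 in VCAM against YFP cells at 36 h, -0.0912 to 0.0406 for Id4 in VCAM 84 h against 60 h, -0.0756 to 0.0833 for Id4 in VCAM minus YFP responses at 60 h, -0.0214 to 0.1032 for Id4 in VCAM minus YFP responses at 84 h, -0.0393 to 0.1195 for Id4 in VCAM against YFP cells at 60 h, -0.0206 to 0.0841 for Id4 in VCAM against YFP QSCs, -0.1382 to 0.0207 for Id4 in YFP 84 h against 60 h and -0.0247 to 0.0883 for Id4 in old minus young responses at 60 h.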
